A study of Mus musculus with 4 samples.

Results

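The receptors through which cerebellar cells hear glutamate, GABA, glycine and acetylcholine were measured in Dicer mutant and control mice. The set took in the subunits of NMDA, kainate, delta and metabotropic glutamate receptors, of GABA-A and GABA-B receptors, of glycine receptors and of nicotinic acetylcholine receptors, chosen by gene symbol. The AMPA subunits were not part of it. The array held 109 probes with such a symbol, for 64 names, out of 41174 probes. Of these, 58 probes for 39 genes were kept, because their signal stood well above background on all 4 arrays for at least 1 genotype. All 58 did so for both genotypes. One kept name, Grid2ip, is caught by the symbol pattern but encodes a scaffold protein of Purkinje neurons, not a subunit.

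The Dicer mutants were mGfap-Cre; Dicer flox/flox mice, in which a Cre transgene driven by mouse Gfap sequences acts on both copies of the gene for the enzyme that makes mature microRNAs. Control littermates were mGfap-Cre; Dicer +/flox, so they carried the same Cre and 1 floxed allele and were not wild type. All were of mixed strain background and 30 days old (postnatal day 30). Whole cerebellum RNA of 4 biologically independent littermate pairs was compared, with each pair on 1 two-colour array, the mutant in Cy5 for pairs 1 and 3 and in Cy3 for pairs 2 and 4.

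In the mature cerebellum the input fibres of granule neurons release glutamate onto NMDA and AMPA receptors, and Golgi neurons inhibit granule neurons through GABA-A receptors. Bergmann glia, the radial astroglia that ensheath Purkinje dendrites, have GABA-A receptors of their own, in which the alpha 2 and gamma 1 subunits are found. A GABA-A receptor is a chloride channel of 5 subunits, usually alpha, beta and gamma or delta, and most of its genes lie in clusters in the genome.

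The array and the tissue were checked first. Probes well above background numbered 26398 to 28907 for the mutants and 26291 to 27718 for the controls, and no spot was saturated. All 10 granule neuron markers and all 11 Purkinje neuron markers searched for passed the filter, while none of 10 brainstem and motor neuron markers and 3 of 8 forebrain markers did. Among 12 markers of Bergmann glia and astroglia 4 rose and 2 fell, with Aldh1l1 at 1.50 ± 0.23 and Slc1a2 at -0.57 ± 0.11 on the log2 scale. Their summed intensity was between 189898 and 253529 in mutants and between 164228 and 188077 in controls, and all 12 were above background. Counted by gene, 7 of the 12 had a ratio below 0 and the median was -0.10, so the sum and the median ran in opposite directions. In whole tissue, fewer cells of a type and less RNA per cell cannot be told apart. Precision is limited by there being 4 arrays. Oligodendrocyte markers leaned down, with 9 of 10 ratios below 0, a median of -0.25 and none passing, and a summed intensity of 202062 to 254721 in mutants and 243032 to 296206 in controls.

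Only Gabrg1 was called among the receptor subunits, by a single probe, and the call held in 10 of 15 alternative settings. These settings are not independent. Changing the filter on dim probes or averaging over probes left its single kept probe and its ratio of -0.71 as they were. The deposited value table gave the same values as the scanner software's processed signals. Gabrg1 is known from Bergmann glia and is also listed below among subunits tied to the immature cerebellum. Of the 39 genes, Gabrg1 was lower in mutant cerebellum and none was higher at an adjusted p under 0.05 (limma over 18025 genes, Benjamini-Hochberg adjustment). Over all genes tested 0.444% were lower and 0.588% were higher by the same rule. A single call among 39 members says nothing about the set as a whole. The median log2 ratio of mutant over control was -0.04 over the 39 members and 0.00 over all genes.

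Gabrg1 encodes the gamma 1 subunit of the GABA-A receptor. Its normalised log2 intensity was 9.45, 9.72, 9.99 and 9.65 in the mutants of pairs 1 to 4, against 10.34, 10.29, 10.58 and 10.45 in their control littermates. The highest mutant lay below the lowest control, so the groups did not overlap. By the brightest probe of each gene, Gabrg1 was the only kept member of which this was true. Over all genes 1.79% had every mutant level below every control level and 2.19% had every mutant level above. Mutants averaged 9.70 ± 0.22 and controls 10.42 ± 0.13 (SD, n = 4 each). The log2 ratios of the pairs were -0.89, -0.57, -0.59 and -0.80, with a mean of -0.71 ± 0.16 (SD, n = 4) and a 95% interval of -0.92 to -0.51. On the linear scale the transcript fell by 39.0% (limma, adjusted p = 0.0280).

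The probe that measured Gabrg1, A_51_P396883, lies on chromosome 5 from 71143181 to 71143240 on the minus strand (build mm9) and was printed 10 times on each array. Its spots were averaged, and within an array the ratio varied between spots with an SD of 0.04 to 0.06, against an SD of 0.16 between pairs. In pair 1 the spots ran from -0.95 to -0.83 and in pair 3 from -0.68 to -0.47. No spot of any pair had a ratio at or above 0. The other Gabrg1 probe, A_52_P547896, was designed on a separate cDNA and was above background on 0 of 4 arrays in either channel, so it gave no second reading. The call did not hold without pair 1 (-0.64, adjusted p = 0.148), without pair 3 (-0.79, adjusted p = 0.0669), with the outlier flags applied after the background fit (-0.57, adjusted p = 0.0668) or with the processed signals of the scanner software (-0.77, adjusted p = 0.0625), although the direction was the same in each.

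**Figure D1:**
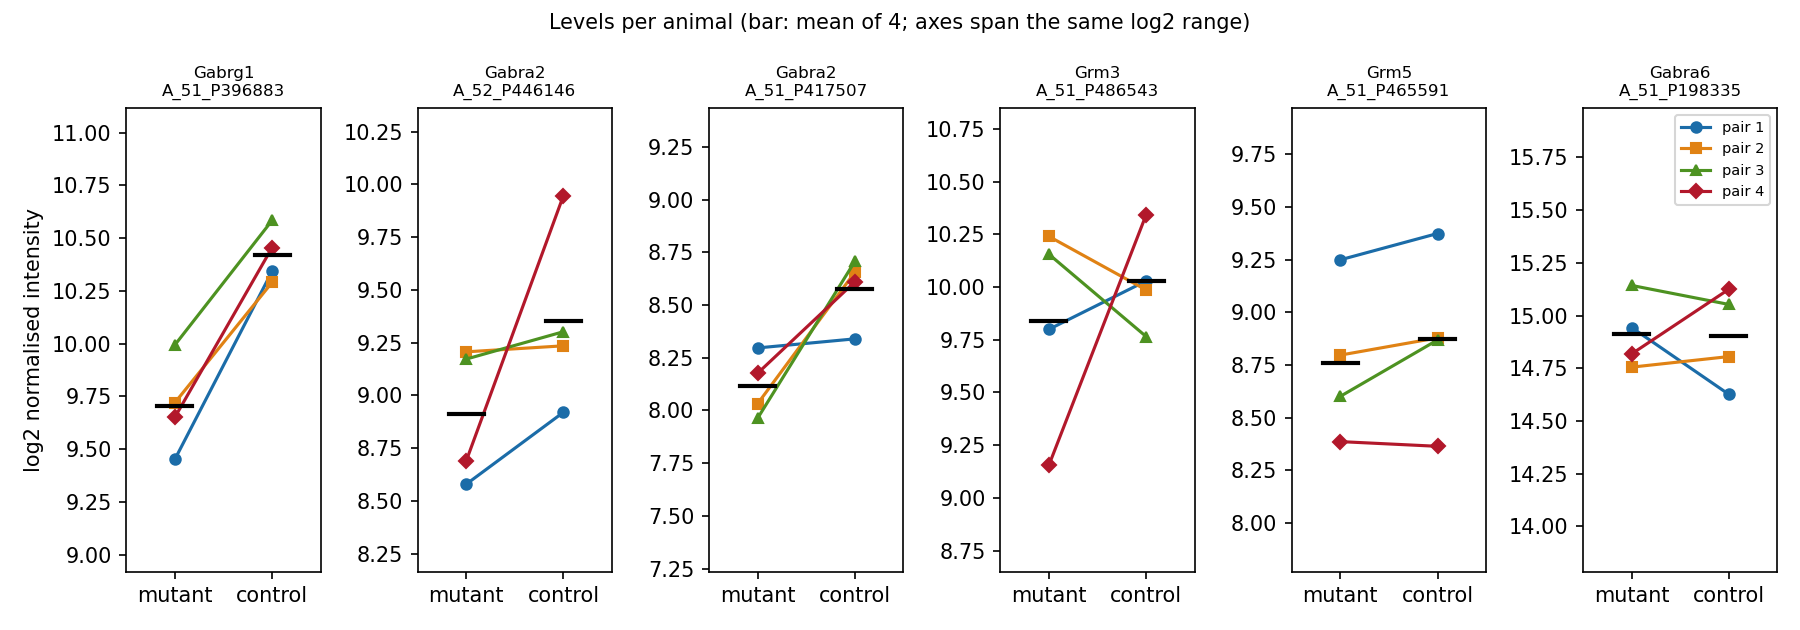
Normalised log2 intensity of 5 receptor genes in each animal, mutants on the left and controls on the right, with littermates joined and a bar at each group's mean; the vertical axes have the same span but different positions. Gabrg1 is lower in the mutant of each of the 4 pairs without overlap. Both Gabra2 probes are also lower in each pair, by amounts that differ between pairs, whereas Grm3 and Gabra6 change direction between pairs.

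Gabra2 encodes the alpha 2 subunit and lies next to Gabrg1 in a cluster on chromosome 5 that also holds Gabra4 and Gabrb1. Its brighter probe, A_52_P446146, had log2 intensities of 8.58, 9.21, 9.17 and 8.69 in mutants, against 8.92, 9.23, 9.30 and 9.95 in controls. The ratios were -0.34, -0.03, -0.13 and -1.26, with a mean of -0.44 ± 0.56 (adjusted p = 0.620). The groups overlapped and most of the mean came from pair 4, without which the ratio was -0.13. Another probe, A_51_P417507, designed on the RefSeq transcript and not on a cDNA clone, gave -0.04, -0.62, -0.74 and -0.43, with a mean of -0.46 ± 0.31, and did not pass in the fit over all probes (adjusted p = 0.332). Both probes were thus below 0 in all 4 pairs, with nearly equal means, but they differed on which pair was lowest. Gabra2 passed without pair 2 (-0.75, adjusted p = 0.0147), a fit in which pair 4 alone stood for the arrays with the mutant in Cy3. With the mean over both probes it stood at -0.45 (adjusted p = 0.186). The other genes of the cluster had ratios near 0, with Gabra4 at 0.11 ± 0.31 and Gabrb1 at 0.05 ± 0.09, and neither passed.

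The promoters of Gabrg1 and Gabra2 are shown because these neighbours were the subunits with the lowest ratios and were below 0 in every pair. They are RefSeq windows of build GRCm38.p6, 250 bases before to 50 after the annotated start, on chr5:70842568-70842867 for Gabrg1 and chr5:71095800-71096099 for Gabra2, both on the minus strand, written 5′ to 3′ with each CG pair in capitals.
Gabrg1: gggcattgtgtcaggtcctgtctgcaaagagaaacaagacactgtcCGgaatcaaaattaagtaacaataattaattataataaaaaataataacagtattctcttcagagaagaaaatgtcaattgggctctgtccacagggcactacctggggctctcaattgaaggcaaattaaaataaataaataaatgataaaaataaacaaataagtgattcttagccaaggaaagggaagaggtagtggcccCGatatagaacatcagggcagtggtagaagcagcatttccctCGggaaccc
Gabra2: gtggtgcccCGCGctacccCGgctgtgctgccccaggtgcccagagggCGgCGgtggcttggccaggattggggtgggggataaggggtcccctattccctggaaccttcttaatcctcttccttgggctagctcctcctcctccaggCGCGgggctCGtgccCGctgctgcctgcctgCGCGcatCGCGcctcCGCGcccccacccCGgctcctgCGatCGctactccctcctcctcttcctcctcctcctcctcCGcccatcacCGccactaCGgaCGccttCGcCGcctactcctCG

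The Gabrg1 window held 3 CG pairs and 38.3% G and C, while the Gabra2 window held 25 and 70.0%. Among 32851 promoters of the same length the median was 7 CG pairs and 52.7% G and C, 94.6% held at least 1 CG pair, and 31.4% held as few as Gabrg1. Of the kept members 28 had a promoter in the table, 36 windows in all, with a median of 12 CG pairs. Among these windows 5 held fewer CG pairs than that of Gabrg1, including windows of Gabra3 and Gabra6, which did not pass. The neighbouring Gabra4 had 12, and Gabrb1 had 25 and 9 at its separate starts. The letters describe the windows only, and their part in the expression values was not tested.

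**Figure D2:**
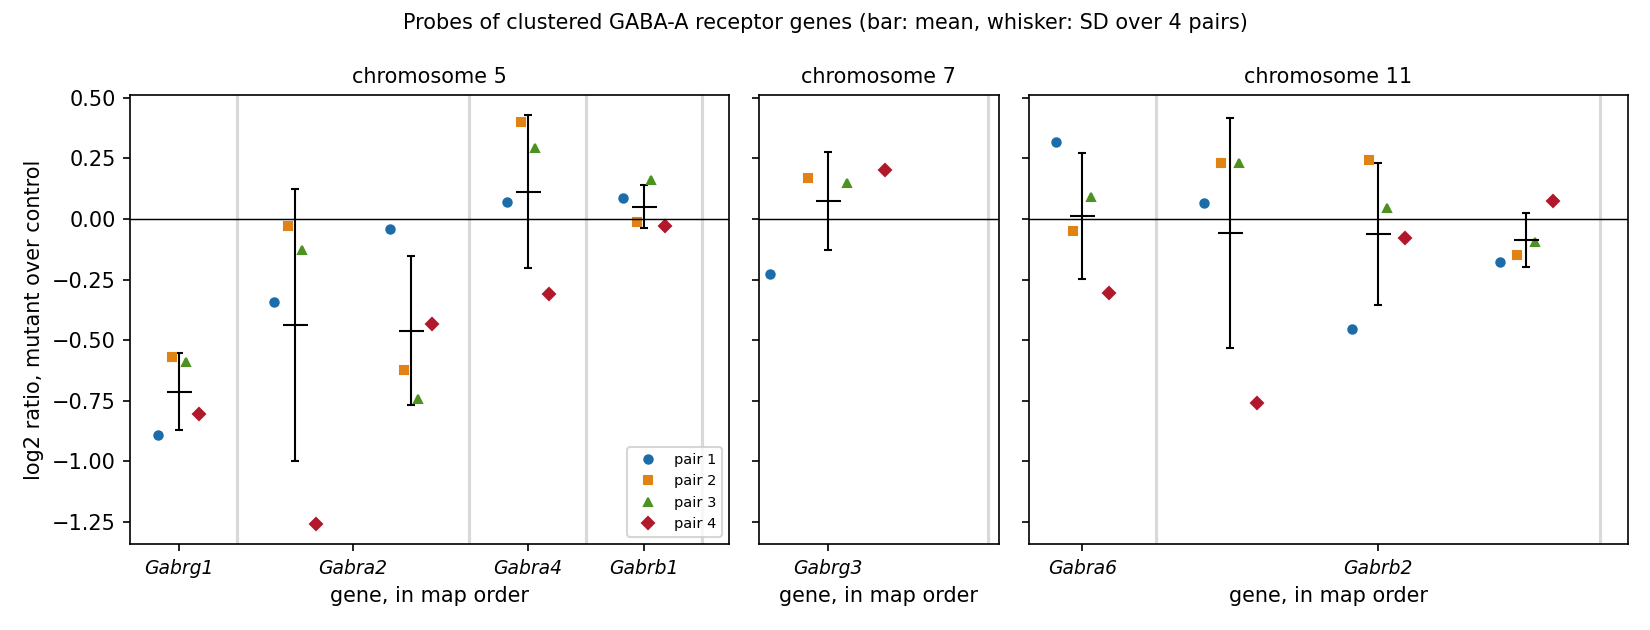
Log2 ratio of mutant over control for the kept probes of 7 GABA-A receptor genes that lie in clusters on chromosomes 5, 7 and 11, with 1 point per pair, a bar at the mean and whiskers of 1 SD over 4 pairs. On chromosome 5 Gabrg1 and both probes of Gabra2 lie below 0, and on chromosomes 7 and 11 the means lie between -0.09 and 0.07.

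The GABA-A subunits of granule neurons did not pass. Gabra6, the alpha 6 subunit typical of granule neurons, was the brightest of the class, with 14.94, 14.76, 15.14 and 14.82 in mutants, against 14.63, 14.81, 15.05 and 15.12 in controls. Its ratios of 0.32, -0.05, 0.09 and -0.31 averaged 0.01 ± 0.26 (95% interval -0.18 to 0.21), so a change of the size seen for Gabrg1 lay outside its interval. Gabrd, the delta subunit that joins alpha 6 in extrasynaptic receptors of granule neurons, had 14.75, 14.74, 14.28 and 14.71 in mutants, against 14.75, 14.72, 14.63 and 14.53 in controls. The mutant of pair 3 was low, the groups otherwise overlapped, and the mean ratio was -0.04 ± 0.23.

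On chromosome 11, where Gabra6 also lies, the beta 2 subunit gene Gabrb2 averaged -0.06 ± 0.29. Its brightest probe was low in pair 1 (-0.46) and stood at 0.24, 0.04 and -0.08 in pairs 2 to 4. The other kept probes of Gabrb2 read differently by pair, with A_51_P227679 at -0.18, -0.15, -0.09 and 0.07 and A_52_P460687 at 0.07, 0.23, 0.23 and -0.76. All of these probes had means below 0, between -0.09 and -0.06, and none passed.

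Other GABA-A genes did not pass. Gabrg3 had 6.73, 6.96, 6.96 and 7.05 in mutants, against 6.96, 6.79, 6.82 and 6.85 in controls, with pair 1 opposite in sign to the others and a mean of 0.07 ± 0.20. Gabra3 averaged 0.02 ± 0.04, the smallest spread of any member, and the rho subunit gene Gabrr1 -0.02 ± 0.08. Gabra5, Gabre, Gabrp, Gabrq and Gabrr2 were not kept.

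The GABA-B receptor is a G protein-coupled dimer of the products of Gabbr1 and Gabbr2. Gabbr1 had 14.25, 14.35, 14.34 and 14.46 in mutants, against 14.23, 14.35, 14.45 and 14.20 in controls, and averaged 0.04 ± 0.16. Gabbr2 had 9.66, 9.47, 9.37 and 8.84 in mutants, against 9.58, 9.63, 9.29 and 8.93 in controls, and averaged -0.03 ± 0.12. The groups overlapped for both, and their further probes lay between -0.13 and 0.01.

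Glycine receptors were represented by Glrb, the beta subunit that anchors the receptor to gephyrin, and Glra2, an alpha subunit of mostly immature neurons. Glrb had 12.03, 11.91, 12.38 and 12.43 in mutants, against 12.04, 12.16, 12.42 and 12.69 in controls. Its ratios were below 0 in all 4 pairs, at -0.25 and -0.26 in pairs 2 and 4, which had the mutant in Cy3, and at 0.00 and -0.04 in the others, so they split by dye order. The mean was -0.14 ± 0.14 (adjusted p = 0.553). Glra2 had 7.20, 7.39, 7.85 and 7.56 in mutants, against 7.38, 7.49, 7.77 and 7.60 in controls, with a mean of -0.06 ± 0.11. Glra1, Glra3 and Glra4 were above background on no array.

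**Figure D3:**
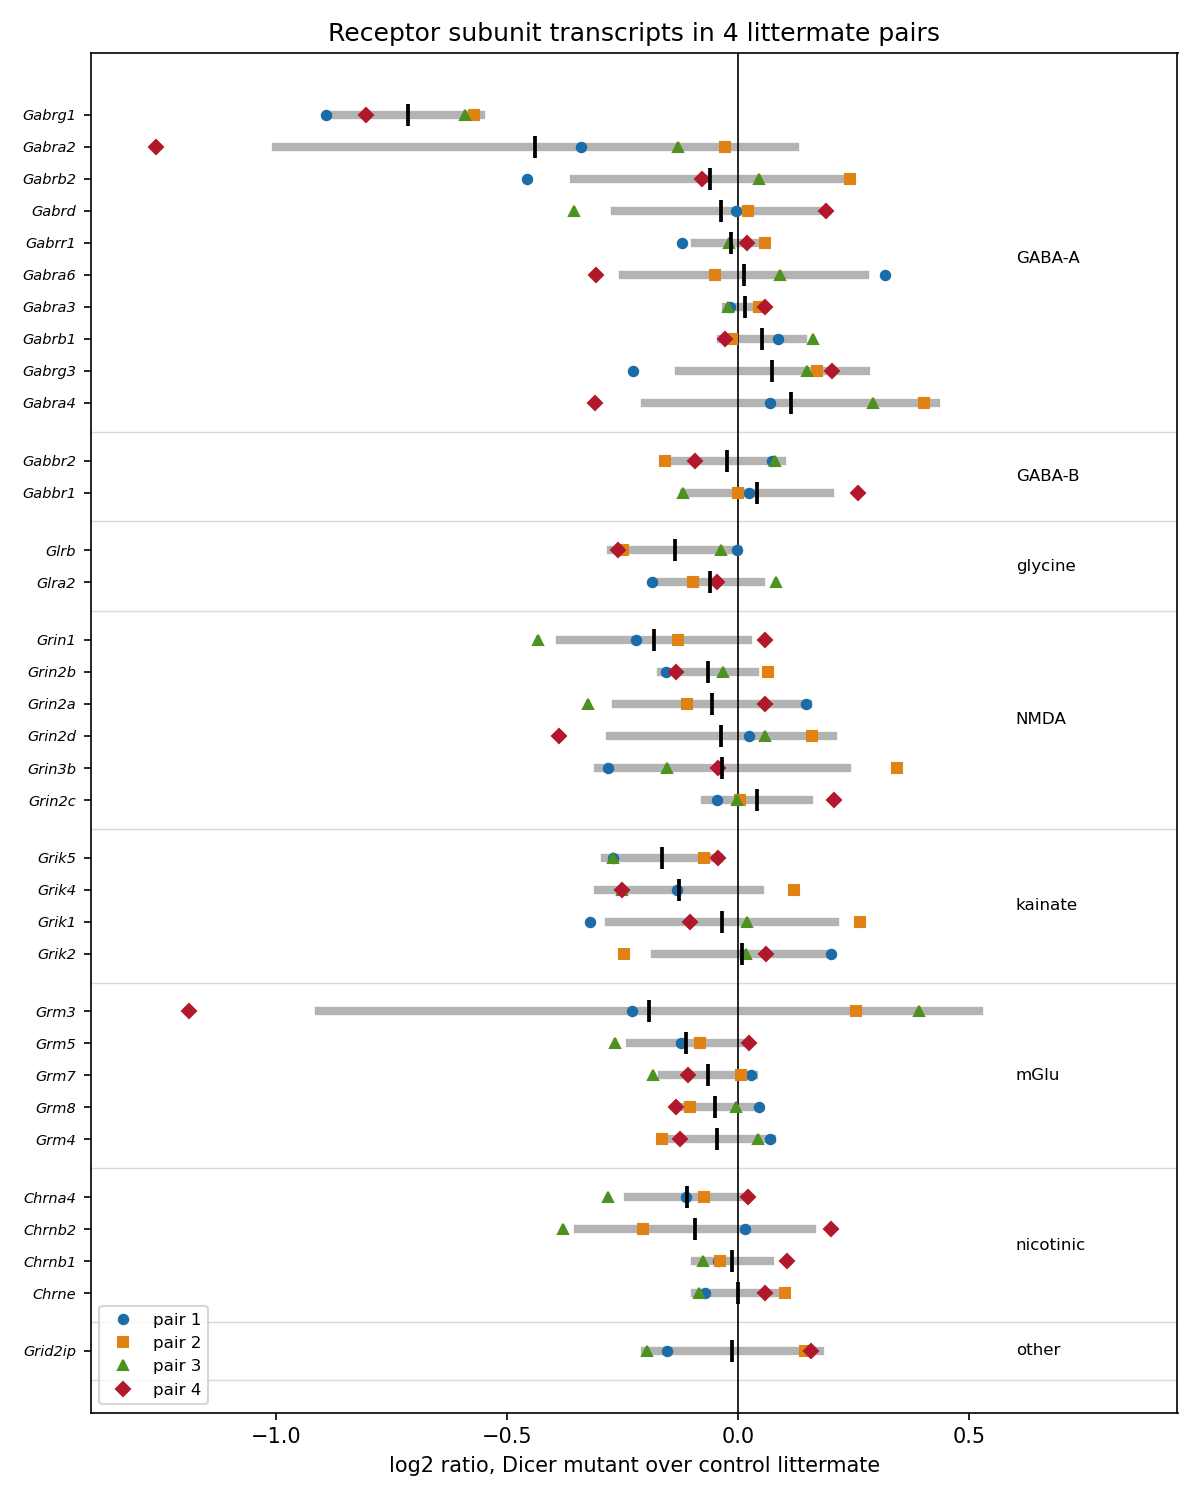
Log2 ratio of mutant over control littermate for 34 of the 39 kept genes, grouped by receptor class, with 1 symbol per pair, a black tick at the mean and a grey bar of 1 SD on each side. Gabrg1 stands apart at -0.71 with all 4 pairs at or below -0.57, and the widest spreads are those of Grm3 and Gabra2, where pair 4 is lowest.

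NMDA receptor subunits did not pass in either direction, with 5 of 6 ratios below 0. Grin1 encodes the obligatory subunit and had 8.67, 8.66, 8.71 and 9.13 in mutants, against 8.89, 8.79, 9.14 and 9.07 in controls. It was lower in pairs 1 to 3 and higher in pair 4, with a mean of -0.18 ± 0.20 (adjusted p = 0.523). Grin2c, the subunit that granule neurons take up as they mature and that astroglia also express, had 14.77, 14.98, 14.82 and 14.95 in mutants, against 14.81, 14.97, 14.82 and 14.74 in controls. Its mean of 0.04 ± 0.11 had an interval of -0.12 to 0.20.

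Grin2b, the subunit that Grin2c replaces in granule neurons, averaged -0.06 ± 0.10, from 7.89, 7.78, 7.46 and 7.34 in mutants, against 8.05, 7.71, 7.50 and 7.47 in controls. Its second kept probe, A_52_P1044964, stood at 0.01. Grin3b had 9.28, 9.61, 9.30 and 9.55 in mutants, against 9.56, 9.26, 9.45 and 9.59 in controls, with pairs 1 and 2 of opposite sign and a mean of -0.03 ± 0.27. Grin2a (-0.06 ± 0.21) and Grin2d (-0.04 ± 0.24) also overlapped between groups, and Grin3a was above background on no array.

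Kainate receptor genes had the member with the second lowest p after Gabrg1. Grik5, an auxiliary high-affinity subunit of granule neurons, had 11.58, 11.67, 11.44 and 11.55 in mutants, against 11.85, 11.75, 11.71 and 11.60 in controls. The ratios of -0.27, -0.07, -0.27 and -0.04 were all below 0 and averaged -0.17 ± 0.12, but did not pass (adjusted p = 0.440). They split by dye order, being lower in pairs 1 and 3, which had the mutant in Cy5, than in pairs 2 and 4. The other high-affinity subunit gene, Grik4, had 11.01, 11.24, 10.88 and 10.73 in mutants, against 11.15, 11.12, 11.14 and 10.98 in controls, lower in 3 pairs, with a mean of -0.13 ± 0.17. Grik1 averaged -0.04 ± 0.24, from 10.02, 10.39, 10.35 and 10.03 in mutants, against 10.34, 10.13, 10.33 and 10.14 in controls. Grik2, a channel-forming subunit of granule neurons, stood at 0.01 ± 0.19, and Grik3 was above background on no array.

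Grid2ip had 8.52, 8.42, 8.41 and 8.55 in mutants, against 8.68, 8.27, 8.60 and 8.39 in controls, with a mean of -0.01 ± 0.19. Grid1 was above background on 3 of 4 arrays in either channel and was not kept.

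All 6 kept metabotropic glutamate receptor genes had a mean below 0 and none passed. Grm5, a receptor of immature astroglia and of Golgi neurons, had 9.25, 8.80, 8.60 and 8.39 in mutants, against 9.37, 8.88, 8.87 and 8.36 in controls, and averaged -0.11 ± 0.12 (adjusted p = 0.713). Grm3, the main metabotropic receptor of mature astroglia, had 9.80, 10.24, 10.15 and 9.16 in mutants, against 10.03, 9.99, 9.76 and 10.34 in controls. Pairs 2 and 3 were higher in the mutant and pairs 1 and 4 lower, so that its mean of -0.19 ± 0.71 had the largest spread of all members and stood at 0.17 without pair 4.

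Grm7 had 7.73, 7.45, 7.47 and 7.59 in mutants, against 7.70, 7.45, 7.66 and 7.70 in controls (-0.06 ± 0.10). Grm8 had 8.40, 8.17, 8.16 and 8.28 in mutants, against 8.35, 8.28, 8.16 and 8.41 in controls (-0.05 ± 0.08). Grm4, the presynaptic receptor of parallel fibres, averaged -0.04 ± 0.12. Grm2, a marker of Golgi neurons, and Grm6 were not kept.

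Nicotinic receptor genes were mostly dim: 4 of 16 names were kept. Chrna4 had 7.41, 7.44, 7.34 and 7.42 in mutants, against 7.53, 7.51, 7.62 and 7.40 in controls, and averaged -0.11 ± 0.13 (adjusted p = 0.720). Chrnb2, which forms the main brain receptor with alpha 4, had 11.78, 11.62, 11.55 and 11.91 in mutants, against 11.77, 11.83, 11.93 and 11.71 in controls. Pair 3 was lowest at -0.38 and pair 4 highest at 0.20, and the mean was -0.09 ± 0.25. Chrnb1 had 6.67, 6.71, 6.75 and 6.81 in mutants, against 6.72, 6.75, 6.82 and 6.70 in controls (-0.01 ± 0.08). Chrne averaged 0.00 ± 0.09. The cholinergic markers Chat, Slc18a3 and Slc5a7 did not pass the filter.

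**Figure D4:**
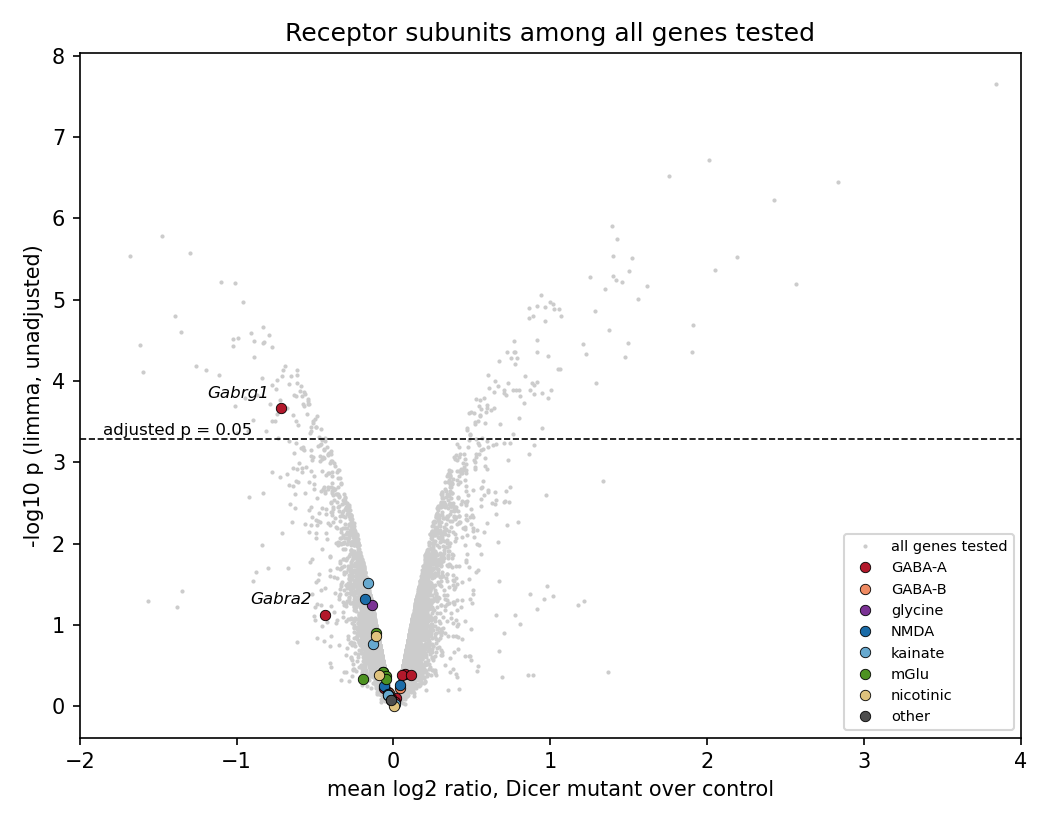
Mean log2 ratio of mutant over control against -log10 of the unadjusted limma p for 18025 genes in grey, with 34 of the 39 receptor genes coloured by class and a dashed line at an adjusted p of 0.05. Gabrg1 is the only receptor gene above the line, and the others lie near 0 with Gabra2 to their left.

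Among themselves the members leaned slightly below 0. Of the 39 genes 29 had a mean ratio below 0, against 8846 of 18025 over all genes. The count was 18 of 21 among the glutamate and nicotinic receptors and 10 of 17 among the GABA and glycine receptors. With no filter on dim probes, an alternative applied to these values after seeing the data, 40 of 64 names were below 0 and the median was -0.02 in place of -0.04. Genes measured on the same arrays are not independent, so no test was made of these counts. By pair, 24, 20, 25 and 22 members were below 0. Gabrg1, Gabra2, Glrb and Grik5 were below 0 in all 4 pairs and no member was above 0 in all 4, where 7.33% of all genes were below and 7.76% above in every pair. In the fit over all probes 1 of the 58 kept probes passed, that of Gabrg1 (adjusted p = 0.0332), against 0.343% lower and 0.486% higher over 25915 probes.

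The 38 members that did not pass were bounded by the data to different degrees. For 36 of them the 95% interval of the log2 ratio, not adjusted for the number of genes, lay within 0.5 on either side of 0. The exceptions were Gabra2 (-0.94 to 0.06) and Grm3 (-0.81 to 0.43). These intervals bound the measured ratios. The offset added to all intensities in the background step draws the ratios of dim probes towards 0. Dim members include Chrnb1 (mean log2 level 6.73 in mutants and 6.75 in controls) and Grin2a (6.79 and 6.84). For such members the intervals do not bound the change in transcript as closely as for bright ones. Where a gene had several kept probes, as 11 did, the means of its probes lay within 0.20 of each other. The median SD between pairs was 0.16 both for the members and for all genes.

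By the cells in which they are best known, the subunits moved as follows. Of 6 subunits associated with Bergmann glia or astrocytes Gabrg1 fell and 5 did not pass, with a median of -0.15. Of 6 subunits of mature granule neurons none passed (median -0.04), with Grik5 and Grm4 lowest in p. Of 5 subunits of Purkinje neurons none passed (median -0.05), and 4 of them had a ratio below 0. Of 7 tested subunits tied to the immature cerebellum Gabrg1 fell and the others did not pass (median -0.06). These lists overlap. Gabrg1, Gabra2 and Grm5 are in both the glial and the immature list, so the fall of Gabrg1 is the same call in each. Grin2c is in both the glial and the granule neuron list. Beside these values, markers of granule neurons had a median of 0.01 and markers of Purkinje neurons of -0.01 with none passing. Of 9 tested markers of GABAergic interneurons, 7 had a ratio below 0 (median -0.03) and 1 fell, the neuropeptide gene Npy, at -1.60 ± 0.37 (limma, adjusted p = 0.0176), lower in all 4 pairs and by more than Gabrg1. Astroglial markers moved both ways as given above. Their part in the fall of Gabrg1 was not tested.

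Genes that work with these receptors did not pass either. Of 13 tested partners of NMDA, kainate and delta receptors none rose or fell (median -0.04). The scaffold gene Dlg4 stood at -0.16 ± 0.05 and C1ql1 at -0.11 ± 0.14. Of 12 partners of metabotropic glutamate receptors none passed (median -0.01), with Ncdn at -0.16 ± 0.22 and Grasp, a scaffold of group I receptors, at -0.11 ± 0.27. Of 20 partners of inhibitory receptors none passed (median -0.05), with the glycine transporter gene Slc6a9 at -0.17 ± 0.21 and Lhfpl3 at -0.11 ± 0.02. Of 8 genes listed as partners of nicotinic receptors none passed (median -0.03). Ly6h stood at -0.17 ± 0.30 and Nptn, whose place on the list was not checked, at 0.13 ± 0.30.

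Members without a kept probe numbered 25, among them 12 nicotinic subunits. Of these 25, 17 were above background on no array in either channel, including Chrna2, Chrna3, Chrna5 and Chrna6, and the most often seen was Grid1. Gabra5, Grm2, Chrna7, Chrna1, Chrna10, Gabre and Gabrp were above background on 1 or 2 arrays. No ratio is given for them.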

How the data were processed

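Cerebellum RNA (500 ng per channel) of 4 littermate pairs was read on 4 two-colour Agilent arrays. Per the file headers, the deposited files hold linear spot and background intensities from Agilent Feature Extraction 10.5.1.1, with probe positions in build mm9. They also hold processed intensities, and, per the file headers, the log10 ratio that the scanner software took from these, with Cy5 on top. The value table holds the same log10 ratios as mutant over control.

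Intensities were recomputed with limma 3.58.1 in R 4.3.3: normexp with an offset of 50, fitted without flagged spots (143 to 248 per array; an order chosen by earlier work after seeing these data), then loess within arrays. Levels per animal were also quantile-normalised between arrays on mean brightness. Spots of a probe were averaged, and the brightest probe past the filter stood for a gene. Accessions gave current symbols for 24844 of 41174 probes. The fit had a dye and a genotype term, with 2 residual and 3.37 prior degrees of freedom. Each array is a pair, so pairing is part of each ratio.

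Members, lists and tests were chosen with earlier results of these data known. Described with values per animal were called members, the 3 lowest in p and 2 brightest of each class, and every member of classes with 3 or fewer kept; Gabra2's further probe, Gabrb2, Gabra4 and Gabrb1 were added afterwards. The values of 5 kept members are not reported here, and these members enter the counts and medians. The script was tested on simulated data. Intervals cover 95%. Alternatives are given in the closing section.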

Additional observations from a re-analysis of the deposited data

Results flagged for a closer look

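Over the 39 members, 1 had a pair far from the other 3: Gabrg3 stood at -0.23 in pair 1, while the other pairs lay between 0.15 and 0.20. Its gap to the nearest pair was 0.872 of the whole range, above Dixon's 95% critical value for 4 values. Chance gives about 1 such case in 20 groups, and the cause was not tested.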

How the results depend on the processing

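Genes called over the whole array numbered 106 higher and 80 lower. The counts were 50 and 32 with the outlier flags after the background fit, and lower genes were 53 with the scanner software's processed signals and likewise with the deposited value table. They ran from 41 to 216 higher and from 11 to 127 lower when 1 pair was left out. The receptor subunits called lower were 0 in place of 1 under each of these 3 settings, and 0 to 2 without 1 pair, where fewer arrays enter the fit. The median ratio of the members ran from -0.05 to -0.02, nearest to 0 with no filter on dim probes. Members with 1 direction in all pairs were 0 higher and 4 lower. With no filter on dim probes, which brings in 64 names, 2 were higher, and without 1 pair there were 0 to 3 higher and 5 to 8 lower. With no replicate block (separate channels) Gabrg1 kept its call (-0.71, adjusted p = 0.0492). Its ratio ran from -0.79 to -0.57 over 15 alternatives and passed in 10. Among these, the filter changes and the mean over probes could not move its ratio, and the value table repeated the processed signals. Of 585 values of single members under an alternative, 535 kept sign and call, 44 uncalled ratios changed sign, 5 calls of Gabrg1 were lost and Gabra2 passed once; apart from stated cases the cause was not tested. Signal over background left 25 names without a value.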

Other observations

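Pair 4 held the lowest ratios of Gabra2 (-1.26), of Grm3 (-1.19) and 1 probe of Gabrb2 (-0.76), but not that of Gabrg1, whose lowest ratio was in pair 1 (-0.89). Of the partner genes tested, Cbln2, named after its values were seen, had the widest spread, at -2.00, -0.19, 0.79 and 0.05 in pairs 1 to 4. Its mean was -0.34 ± 1.19 (SD, n = 4; limma, adjusted p = 0.900), and it was lower in 2 pairs and higher in 2.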
